A study of Mus musculus with 19 samples.

Results

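The genes described here are 10 genes by which epithelial and mesenchymal states of a cell are told apart, followed in E0771 mouse mammary carcinoma cells taken back out of tumors. The 6 epithelial genes are Cdh1, Jup, Dsp, Epcam, Krt8 and Krt18, and the 4 mesenchymal genes are Vim, Cdh2, Zeb1 and Zeb2. They were chosen by symbol, and each matched 1 of the 39017 genes counted. E0771 cells come from a C57BL/6 mouse, and here they carried the red fluorescent protein mCherry. All mice, labelled c57bl6, were of the same strain and received these cells in a mammary fat pad, the site of origin of the line. Tumors were dissociated, mCherry-positive cells were sorted, and their total RNA was sequenced. The groups were obese endpoint (5 tumors, day 21), lean endpoint (4 tumors used, day 21), obese midpoint (5 tumors, day 14) and lean midpoint (4 tumors, day 14). The sample titles tie obese to HFD and lean to Chow. One further lean endpoint library, replicate 4, had counts up to chromosome 5 and none on chromosomes 6 to X, so it was left out.

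Epithelial cells hold together through adherens junctions, built on E-cadherin (Cdh1), and through desmosomes, built on desmosomal cadherins, plakoglobin (Jup) and desmoplakin (Dsp). Keratins 8 and 18 (Krt8 and Krt18) pair to form the intermediate filaments of simple epithelia such as the luminal cells of the mammary gland, and EpCAM (Epcam) is an adhesion protein of epithelial surfaces. In an epithelial-mesenchymal transition, transcription factors such as ZEB1 and ZEB2 (Zeb1 and Zeb2) bind short E-box sequences in epithelial promoters and repress them, while vimentin (Vim) filaments and N-cadherin (Cdh2) take the place of keratins and E-cadherin. In carcinomas the transition is partial more often than complete, and it is studied for its part in invasion and spread.

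The 18 libraries held 44174080 to 56996252 counts each. The genes were compared after scaling by the TMM method, which sets libraries to a common scale, as CPM (counts set to a common library total) within a gene and as CPM per 1000 bases of exon (RPKM) between genes. Of the 10 genes, 5 passed the filter on low counts: Krt8 and Jup of the epithelial genes, and Vim, Zeb1 and Zeb2 of the mesenchymal genes. In bulk RNA of sorted cells, fewer cells with a transcript and less transcript per cell cannot be told apart. The libraries also differed in how counts depended on the GC content of a gene. For each gene, log2 CPM was taken as the difference from its mean over the 18 libraries. The slope of that difference per 10 percentage points of GC lay between -0.874 and -0.419 in obese endpoint libraries. It lay between -0.874 and -0.0643 in lean endpoint, 0.326 and 1.52 in obese midpoint and 0.106 and 0.443 in lean midpoint libraries. A slope thus sets a library against the others, and its sign says nothing of levels within that library. Mitochondrial transcripts took 17.1% to 24.4% of obese endpoint, 17.1% to 44.7% of lean endpoint, 5.79% to 8.06% of obese midpoint and 8.95% to 12.3% of lean midpoint counts. The genes sit at different points on that scale, with a GC content of 58.8% for Jup, 57.1% for Krt8, 46.5% for Vim, 46.1% for Zeb1 and 40.6% for Zeb2. Differences of the 5 genes over time are therefore given also after a correction for GC content and length.

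The E-box CACCTG, or CAGGTG on the other strand, is the sequence best known for binding by ZEB1 and ZEB2, and the 250 bases before the start of Epcam, Krt8 and Krt18 hold it. These 3 sequences are shown because they are the promoters of epithelial genes in the set in which the letters occur; they are RefSeq's, on GRCm38.p6, written 5′ to 3′ on the strand of the gene, with the E-box in capitals. The Epcam window is chr17:87635729-87635978 on the plus strand, the Krt8 window chr15:102004343-102004592 on the minus strand and the Krt18 window chr15:102027966-102028215 on the plus strand.
Epcam: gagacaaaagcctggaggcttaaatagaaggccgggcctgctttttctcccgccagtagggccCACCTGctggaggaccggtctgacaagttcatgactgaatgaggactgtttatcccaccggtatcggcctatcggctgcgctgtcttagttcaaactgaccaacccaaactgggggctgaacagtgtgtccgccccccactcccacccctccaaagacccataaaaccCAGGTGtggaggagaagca
Krt8: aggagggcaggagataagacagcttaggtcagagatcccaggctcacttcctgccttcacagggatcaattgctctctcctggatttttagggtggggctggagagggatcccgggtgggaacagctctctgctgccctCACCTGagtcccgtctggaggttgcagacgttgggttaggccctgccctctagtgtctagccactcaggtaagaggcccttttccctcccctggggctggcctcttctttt
Krt18: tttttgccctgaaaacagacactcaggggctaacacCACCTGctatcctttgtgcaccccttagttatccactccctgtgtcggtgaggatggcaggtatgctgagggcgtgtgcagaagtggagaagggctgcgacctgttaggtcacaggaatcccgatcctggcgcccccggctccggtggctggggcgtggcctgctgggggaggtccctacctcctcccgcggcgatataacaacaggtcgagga
The first bases of the E-boxes lie 187 and 19 bases before the start of Epcam, 111 before that of Krt8 and 214 before that of Krt18. The windows of Jup, Dsp, Vim and Zeb2 hold neither form, and Cdh1, Cdh2 and Zeb1 have no entry in the table used. Of 32851 promoters of the same length, 17.2% hold the motif on either strand, so a match describes the letters and is not a binding site.

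Most of the epithelial genes were close to undetected in all 4 groups. Cdh1 (ENSMUSG00000000303, chr8:106603351-106670246 of mm10) had 71 counts over the 18 libraries, from 0 to 14 in a library and 0 in 4 of them. Epcam (ENSMUSG00000045394, chr17:87635979-87651106) had 106 counts, from 0 to 16 in a library. Dsp (ENSMUSG00000054889, chr13:38151328-38198577) had 69 counts, from 0 to 18 in a library and 0 in 6 of them. Thus E-cadherin, EpCAM and desmoplakin transcripts were each read a few times or not at all in any one library. Krt18 (ENSMUSG00000023043, chr15:102028216-102032026) had 28 counts, never more than 4 in a library. A count of 0 allows 3 counts, which is 0.0459 to 0.0946 CPM depending on the library. These genes, the markers that define an epithelial cell, were thus near the floor in cells labelled as mammary carcinoma. None of them could be compared between groups in the main test, since all lay below its filter.

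Krt8 stood apart from its own partner keratin. Krt8 (ENSMUSG00000049382, chr15:101996711-102004342) averaged 17.2 RPKM over the libraries, against 0.0220 RPKM for Krt18. Per base, its summed counts were 799 times those of Krt18. Transcripts of Gm36026 and Krt8-ps share 29.7% of the 50-base stretches of Krt8, so part of its counts could come from these genes. Of them, Gm36026 is a noncoding gene that overlaps Krt8 on the other strand. Jup (ENSMUSG00000001552, chr11:100368958-100397763), which serves both desmosomes and adherens junctions, was the other epithelial gene with a measurable level, at 0.769 RPKM.

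The mesenchymal side was uneven too, with vimentin at the top of the transcriptome and N-cadherin missing. Vim (ENSMUSG00000026728, chr2:13573927-13582826) averaged 2364 RPKM, above 99.8% or more of the tested genes in each group. Its level per length was between 46.4 and 211 times that of Krt8 in the same library. Zeb1 (ENSMUSG00000024238, chr18:5591860-5775467) averaged 9.54 RPKM and Zeb2 (ENSMUSG00000026872, chr2:44983634-45117395) 9.91 RPKM. With the strand setting unknown, reads of the antisense genes Zeb2os (1569 counts, against 175625 for Zeb2) and Gm10125 (762 counts, against 87049 for Zeb1) may be mixed with theirs. Cdh2 (ENSMUSG00000024304) was counted in 1 library, with 2 counts in obese endpoint replicate 4, and had 0 counts in the other 17. Both cadherins that name the 2 ends of the transition were therefore at or near the floor, in every group, while Vim, Krt8 and both Zeb genes were measured.

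**Figure D1:**
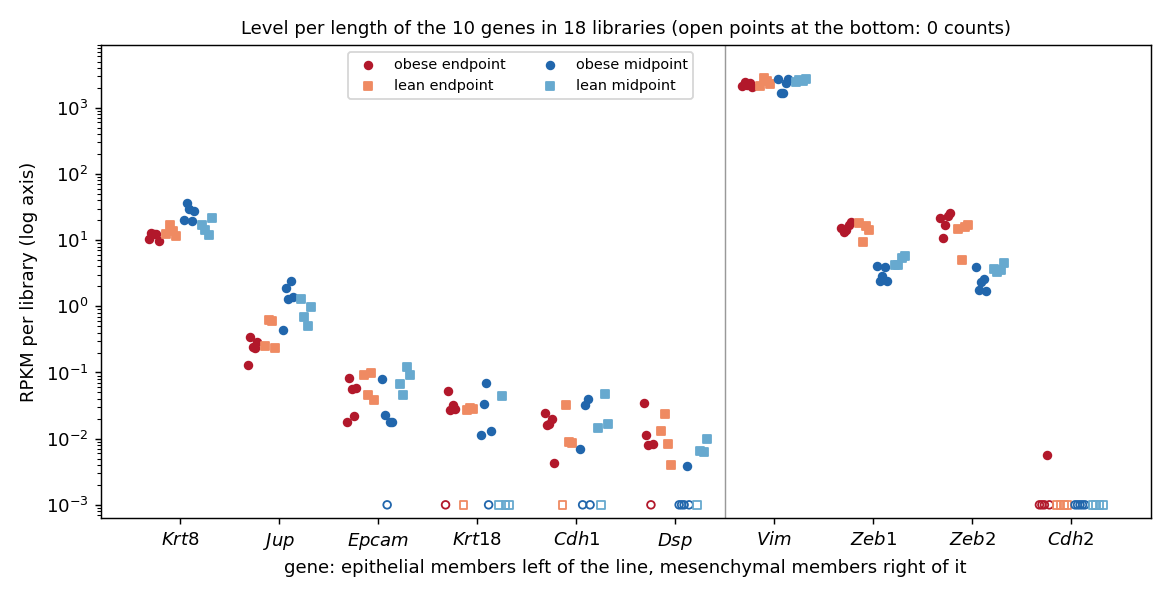
Level per length (RPKM, log axis) of the 10 genes in each of the 18 libraries, coloured by group, with epithelial genes left of the line and mesenchymal genes right of it; open points mark libraries with 0 counts. Vim lies above 1662 RPKM in every library, Krt8, Zeb1 and Zeb2 lie between 1.71 and 35.9 RPKM, and Cdh1, Epcam, Krt18, Dsp and Cdh2 lie at or below 0.120 RPKM.

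The first comparison asked how the cells of obese mice at endpoint differed from those at midpoint. Both Zeb genes rose and both measurable epithelial genes fell, while Vim did not pass the test. Of the 5 tested genes, 4 passed, 2 in each direction, where 73.9% of all 16352 genes tested passed, 37.8% of them higher and 36.1% lower. The share of 4 in 5 is near that background, so nothing about the set is read from the count. Because the genes were named with earlier results of these data known, their p-values set a difference against the spread between tumors and are not independent support.

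With TMM scaling Zeb2 had the largest difference of the 5 tested genes over time in obese mice, whereas after the correction Jup and Zeb1 differed more. It stood at 432, 215, 327, 455 and 506 CPM in obese endpoint libraries, against 78.5, 34.8, 46.0, 50.7 and 33.5 CPM in obese midpoint libraries. Every endpoint library lay above every midpoint library. Its log2 fold change was 2.99 ± 0.31 (SE), a 7.95-fold higher level (edgeR adjusted p = 4.3e-07). Zeb1, the second of the pair of repressors, read 156, 134, 144, 169 and 187 CPM in obese endpoint libraries, against 40.8, 24.1, 29.4, 40.1 and 24.0 CPM in obese midpoint libraries. These groups did not overlap either. The log2 fold change of Zeb1 was 2.32 ± 0.21 (SE), or 4.98-fold (edgeR adjusted p = 2.7e-07).

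Krt8 moved the other way. It had 19.002, 23.1, 22.5, 22.5 and 17.5 CPM in obese endpoint libraries, against 36.2, 64.8, 53.6, 34.5 and 49.96 CPM in obese midpoint libraries. The highest endpoint value lay below the lowest midpoint value. Its log2 fold change was -1.19 ± 0.20 (SE; edgeR adjusted p = 2.6e-05). Plakoglobin fell further: Jup had 0.828, 2.18, 1.56, 1.48 and 1.89 CPM in obese endpoint libraries, against 2.87, 11.996, 8.44, 15.7 and 8.98 CPM in obese midpoint libraries. Midpoint replicate 1 had the lowest Jup of its group and still lay above all endpoint libraries. The log2 fold change of Jup was -2.59 ± 0.41 (SE; edgeR adjusted p = 1.6e-05).

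Vim gave 5008, 5669, 5112, 5609 and 4774 CPM in obese endpoint libraries, against 6428, 3890.3, 3881, 5574 and 6339.7 CPM in obese midpoint libraries. Midpoint replicates 2 and 3 lay below all endpoint libraries and replicates 1 and 5 above them, so the ranges overlapped. Its log2 fold change was 0.00 with a 95% interval from -0.31 to 0.32 (edgeR adjusted p = 0.985).

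The GC slope and the mitochondrial share of the libraries moved with these results, and the part of the mitochondrial share was not tested. The GC and length correction moved the median log2 fold change of all genes to 0.27, against -0.0015 without it, and passed 55.8% of genes, 37.9% higher and 17.9% lower. After it Zeb1 stayed higher by 1.21 (edgeR adjusted p = 7.1e-07) and Zeb2 by 0.58 (adjusted p = 0.0017), which is 0.94 and 0.30 above that median. Jup stayed lower at -1.56 (edgeR adjusted p = 0.00070). Krt8 turned in sign to 0.25 (edgeR adjusted p = 0.069), which is -0.02 relative to the median of all genes, so its fall was not seen on that scale. Vim became lower at -0.39 (edgeR adjusted p = 0.011).

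**Figure D2:**
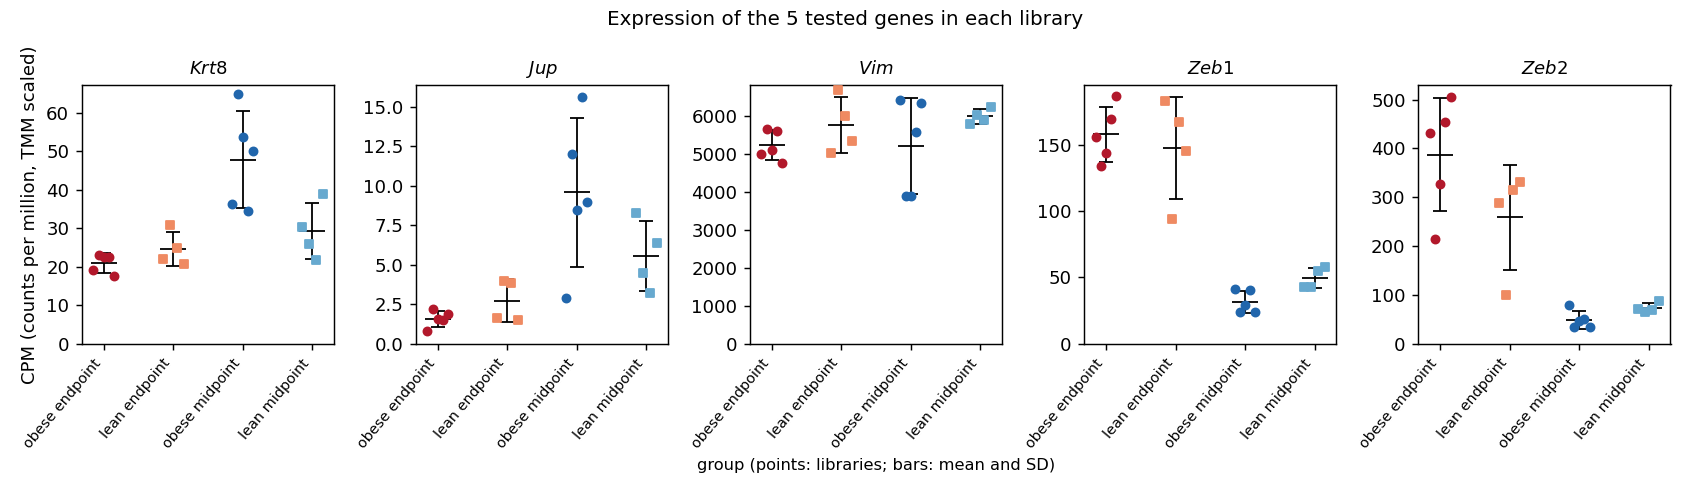
CPM of the 5 tested genes in each library (points) with the mean and SD of each group (bars), in panels with their own linear axes from 0. Zeb1 and Zeb2 are higher in both endpoint groups than in both midpoint groups without overlap within a diet, and Krt8 and Jup are highest in obese midpoint libraries, where they also spread the most.

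Over the same week in lean mice the Zeb genes were the members that passed, 2 of the 5 tested genes, where 30.9% of all genes passed, 21.4% of them higher and 9.5% lower. Zeb1 stood at 183, 94.2, 167 and 145 CPM in lean endpoint libraries, against 42.5, 42.9, 54.5 and 57.6 CPM in lean midpoint libraries. The groups did not overlap, although endpoint replicate 2 was well below the others of its group. The log2 fold change of Zeb1 was 1.58 ± 0.22 (SE; edgeR adjusted p = 0.00020). Zeb2 stood at 288, 99.9, 315 and 332 CPM in lean endpoint libraries, against 71.4, 65.1, 68.8 and 87.3 CPM in lean midpoint libraries. Endpoint replicate 2 was again the lowest, and it also had the flattest GC slope of the endpoint libraries, -0.0643. The log2 fold change of Zeb2 was 1.82 ± 0.34 (SE; edgeR adjusted p = 0.00063).

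The epithelial genes of lean mice did not pass. Krt8 had 22.1, 30.8, 24.8 and 20.8 CPM in lean endpoint libraries, against 30.4, 25.8, 21.8 and 38.8 CPM in lean midpoint libraries, and the ranges overlapped. Its log2 fold change was -0.25 with a 95% interval from -0.70 to 0.21 (edgeR adjusted p = 0.39). Jup had 1.64, 3.94, 3.85 and 1.48 CPM in lean endpoint libraries, against 8.26, 4.46, 3.20 and 6.35 CPM in lean midpoint libraries. Endpoint replicates 2 and 3 lay above midpoint replicate 3 and below the other midpoint libraries. The log2 fold change of Jup was -1.02 ± 0.44 (SE; edgeR adjusted p = 0.078), and it passed without lean midpoint replicate 3 (adjusted p = 0.043), without lean endpoint replicate 2 (0.039) or without obese midpoint replicate 1 (0.034).

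Vim in lean mice was 5034, 6684, 6000.0 and 5353 CPM at endpoint and 5795, 6039, 5903 and 6247 CPM at midpoint, with a log2 fold change of -0.06 (95% interval from -0.41 to 0.30). The spread of the endpoint libraries held all of the midpoint libraries. After the correction for GC content and length, where 25.4% of genes passed, 19.6% higher and 5.72% lower, and the median of all genes was 0.18, against 0.04 without it, Zeb1 remained higher by 0.98 (edgeR adjusted p = 0.00024). Zeb2 no longer passed, at 0.33 (edgeR adjusted p = 0.13), and Krt8 turned to 0.48 and passed as higher (adjusted p = 0.010), or 0.30 above the median. Jup stood at -0.59 (edgeR adjusted p = 0.26) and Vim at -0.18 (adjusted p = 0.35).

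Whether time acted differently in the cells of obese and lean mice was tested as a diet by time interaction, and 0 of the 5 genes passed, where 0.0% of all genes passed in edgeR. At an unadjusted p under 0.05, 4 of the 5 genes and 5451 of all 16352 differed. The estimates were 1.17 ± 0.44 (SE) for Zeb2, 0.74 ± 0.29 for Zeb1, -0.95 ± 0.29 for Krt8 and -1.57 ± 0.59 for Jup, with adjusted p-values from edgeR between 0.098 and 0.11. Vim had an estimate of 0.06 ± 0.23 (edgeR adjusted p = 0.86). DESeq2 passed Krt8, Zeb1 and Zeb2, with adjusted p-values of 0.046 to 0.050, among 1530 genes in all. Without obese midpoint replicate 1, whose Jup was the lowest and whose Zeb2 the highest of its group, edgeR passed Jup, Krt8, Zeb1 and Zeb2, with adjusted p-values of 0.017 to 0.033. They were among 5656 of 16268 genes that passed in that fit, so nothing about the set is read from it. After the GC and length correction of the 18 libraries, the estimates were 0.25 for Zeb2, 0.23 for Zeb1, -0.23 for Krt8, -0.97 for Jup and -0.21 for Vim. Their adjusted p-values from edgeR lay between 0.28 and 0.52, where 0.0% of all genes passed. The 2 time comparisons share no libraries.

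**Figure D3:**
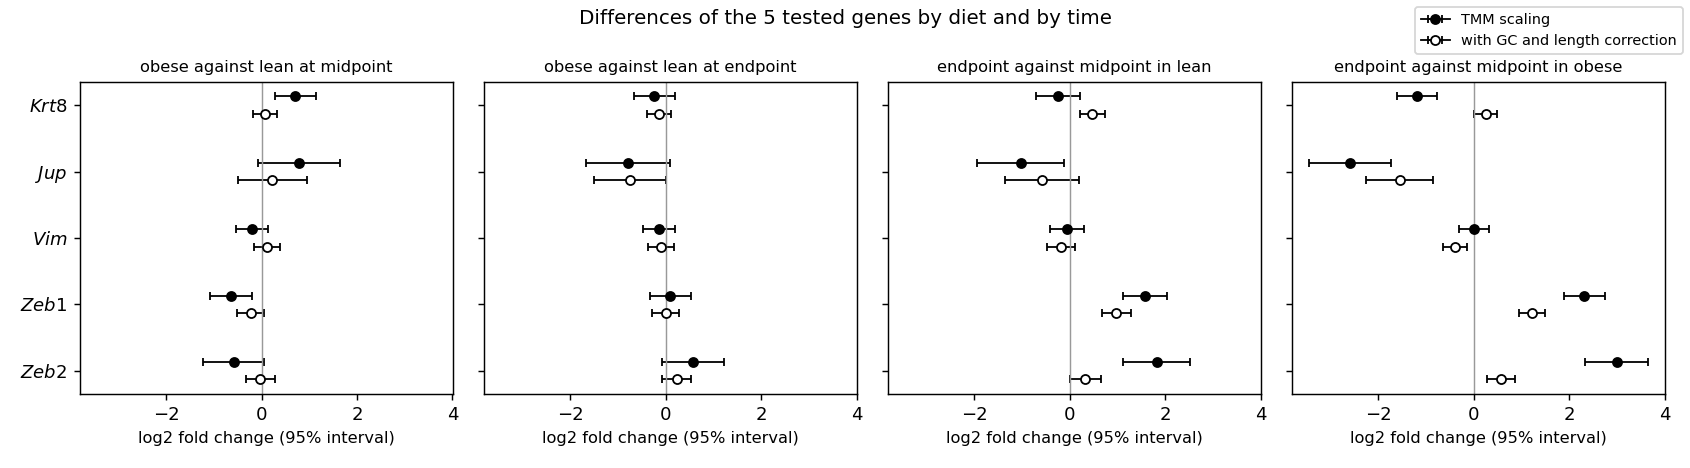
Log2 fold changes with 95% intervals of the 5 tested genes in 4 comparisons, with TMM scaling (filled) and with the added correction for GC content and length (open). The estimates of Zeb1 stay right of 0 on both scales in both time comparisons, and those of Jup stay left of 0. The corrected interval of Jup in lean mice, from -1.36 to 0.19, includes 0. The estimates of Krt8 move from left to right of 0 in both time comparisons once corrected. Their corrected intervals run from 0.21 to 0.74 in lean and from 0.012 to 0.49 in obese mice.

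The diet comparison asked whether the cells from obese mice differed from those of lean mice at the same time. At midpoint the obese libraries had more Krt8 and less Zeb1, so 2 of the 5 tested genes passed, where 29.5% of all genes passed, 16.7% of them higher and 12.8% lower. Krt8 averaged 47.8 ± 12.6 CPM in obese midpoint libraries and 29.2 ± 7.28 CPM in lean midpoint libraries (SD, n = 5 and 4), and the 2 ranges overlapped. Its log2 fold change was 0.71 ± 0.21 (SE; edgeR adjusted p = 0.031). Zeb1 averaged 31.7 ± 8.30 CPM in obese midpoint libraries and 49.4 ± 7.81 CPM in lean midpoint libraries (SD, n = 5 and 4), and all obese libraries lay below all lean libraries. The log2 fold change of Zeb1 was -0.64 ± 0.21 (SE; edgeR adjusted p = 0.034).

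The other genes did not pass at midpoint. Zeb2 averaged 48.7 ± 18.2 CPM in obese and 73.1 ± 9.78 CPM in lean midpoint libraries (SD, n = 5 and 4), with replicate 1 as the only obese library inside the lean range. Its log2 fold change was -0.59 (edgeR adjusted p = 0.14). Jup averaged 9.59 ± 4.73 CPM in obese and 5.57 ± 2.21 CPM in lean midpoint libraries (SD, n = 5 and 4), a log2 fold change of 0.78 (edgeR adjusted p = 0.14). Vim averaged 5223 ± 1265 CPM in obese and 5996 ± 195 CPM in lean midpoint libraries (SD, n = 5 and 4), a log2 fold change of -0.20 (edgeR adjusted p = 0.33). In lean midpoint libraries Vim hardly varied, whereas 2 obese libraries lay near 3881 CPM and the other 3 at 5574 CPM or more.

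The 2 midpoint calls rested on few libraries, as did those of all genes. Without replicate 2 or 3 of either group 0 of all genes passed. Krt8 lost its call without lean replicate 1, 2 or 3 or obese replicate 2 or 3 (edgeR adjusted p = 0.051 to 0.13), and Zeb1 without lean replicate 2, 3 or 4 or obese replicate 2, 3 or 5 (adjusted p = 0.052 to 0.13). Without obese replicate 1 the count of genes of the set that passed was 4, with Jup and Zeb2 added. In that fit 7946 of 16268 genes passed. After the correction for GC content and length, where 7.26% of genes passed, 3.72% higher and 3.55% lower, none of the 5 passed, and Krt8 stood at 0.08 and Zeb1 at -0.23 (edgeR adjusted p = 0.69 and 0.28).

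At endpoint 0 of the 5 genes passed between obese and lean mice, where 0.00612% of all genes did. No member had an unadjusted p under 0.05, and DESeq2 passed none of them. Zeb2 averaged 387 ± 116 CPM in obese and 259 ± 108 CPM in lean endpoint libraries (SD, n = 5 and 4), a log2 fold change of 0.58 with a 95% interval from -0.07 to 1.23. Zeb1 averaged 158 ± 20.9 CPM in obese and 148 ± 38.8 CPM in lean endpoint libraries (SD, n = 5 and 4), a difference of 0.10 with an interval from -0.34 to 0.53. Jup averaged 1.59 ± 0.507 CPM in obese and 2.73 ± 1.35 CPM in lean endpoint libraries (SD, n = 5 and 4), with an interval from -1.66 to 0.08. Krt8 averaged 20.9 ± 2.51 CPM in obese and 24.6 ± 4.43 CPM in lean endpoint libraries (SD, n = 5 and 4), with an interval from -0.67 to 0.20. After the correction 0 of the 5 passed as well, where 0.0062% of genes did. Whether the diet difference itself differed between the days is the interaction given above.

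Ordered by mean level, Zeb2 ran from obese endpoint through lean endpoint and lean midpoint to obese midpoint, and Zeb1 followed the same order. Within each time point the neighbours of that order did not pass for Zeb2, and for Zeb1 the midpoint pair alone passed. Krt8 ran the other way, from obese midpoint through lean midpoint and lean endpoint to obese endpoint, as did Jup. Of the neighbours in that order the 2 midpoint groups passed for Krt8, and none passed for Jup. The order of Vim, from lean midpoint through lean endpoint and obese endpoint to obese midpoint, held no pair that passed.

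Set side by side per length with TMM scaling, Krt8 exceeded Zeb1 in all midpoint libraries and in 1 endpoint library. The ratio of Krt8 to Zeb1 in RPKM ran from 0.524 to 0.964 in obese endpoint libraries, against 4.83 to 15.05 in obese midpoint libraries. In lean mice it ran from 0.675 to 1.83 in endpoint libraries, against 2.24 to 4.01 in midpoint libraries. Lean endpoint replicate 2 was that endpoint library. Krt8 and Zeb1 differ in GC content, and the ratios are not corrected for it: corrected over time in obese mice, Krt8 stood at 0.25 and Zeb1 at 1.21, against -1.19 and 2.32 without correction. The ratio of Zeb2 to Zeb1 lay between 0.825 and 1.43 in obese endpoint, 0.545 and 1.18 in lean endpoint, 0.651 and 0.989 in obese midpoint and 0.649 and 0.864 in lean midpoint libraries, so Zeb2 exceeded Zeb1 per length in some endpoint libraries and in none of the midpoint libraries. Krt8 exceeded Jup 7.87-fold or more in every library.

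**Figure D4:**
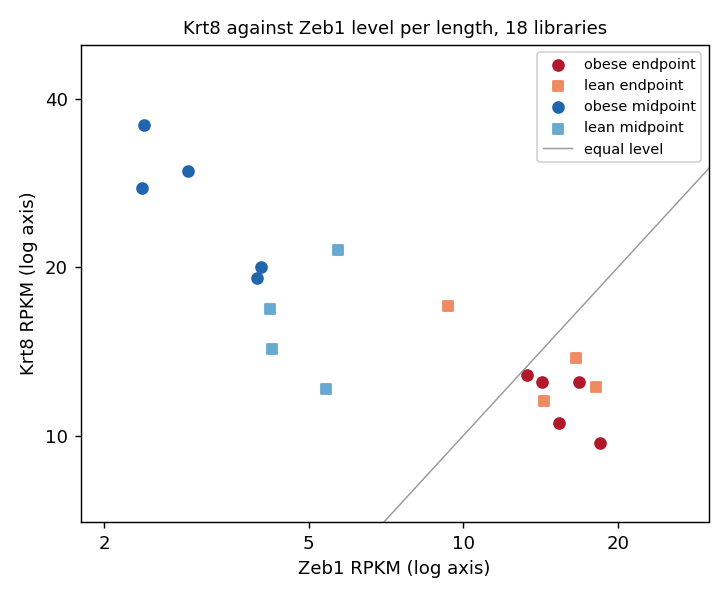
Krt8 against Zeb1 in RPKM (log axes) in the 18 libraries, coloured by group, with the line of equal level. Midpoint libraries lie above the line with ratios of 2.24 or more, and all endpoint libraries except lean replicate 2 lie below it; the levels are not corrected for GC content.

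Within groups the genes also varied together to some degree. Over the 18 libraries, with each group centred on its mean log2 CPM, Pearson's r was 0.85 between Zeb1 and Zeb2 and 0.50 between Jup and Krt8. Across the sides it was -0.61 between Krt8 and Zeb1 and -0.53 between Krt8 and Zeb2. Vim ran apart from all of them, with r between -0.20 and 0.02. These are descriptions with no test, since all genes of a library share its depth and its GC slope, and the slopes differed between libraries of a group.

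Among 10913 genes with a mean of at least 1 CPM, those named here were among the 3 most like each gene on the same measure over the 18 libraries. Zeb2 was most like Acap2 (r = 0.99), Avl9 and Zc3h12c (both 0.98), and Zeb1 was most like Nkap (0.95), Stxbp3 and Fam8a1 (both 0.94). Krt8 was most like Dnpep, Stub1 (both 0.95) and Tmem106c (0.94), Jup was like Arvcf, a catenin of the p120 family, and Pdgfrb (both 0.91), and Vim was like Snx1 (0.94) and March8 (0.92). Those named for Zeb1 and Zeb2 had a GC content of 41.0% to 46.3%, and those named for Krt8 and Jup 53.9% to 60.8%.

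Other genes of the junctions were examined by lists named for their roles. Each count over a list is read beside the share of all genes that passed, which was 73.9% over time in obese mice (37.8% higher, 36.1% lower), 30.9% over time in lean mice (21.4% higher, 9.5% lower) and 29.5% at midpoint between diets (16.7% higher, 12.8% lower), and nothing particular to a list is read from it. After the GC and length correction these shares were 55.8%, 25.4% and 7.26%, and corrected counts are read beside them. In the list of adherens junction partners, 11 of 12 genes were tested, and beta-catenin (Ctnnb1) at 64.1 RPKM and alpha-catenin (Ctnna1) at 63.0 RPKM were abundant although Cdh1 and Cdh2 were not; P-cadherin (Cdh3) had at most 3 counts in a library. Between endpoint and midpoint in obese mice 6 of the 11 rose and 3 fell, where 73.9% of all genes passed, with a median log2 fold change of 0.49, against -0.0015 over all genes. The nectins moved in different directions: Nectin3, a cell adhesion receptor, had 24.8 CPM in obese endpoint and 4.75 CPM in obese midpoint libraries (log2 fold change 2.38, edgeR adjusted p = 5.3e-07), and Nectin2 had 29.5 CPM in obese endpoint and 76.3 CPM in obese midpoint libraries (log2 fold change -1.37, adjusted p = 4.5e-06). Afadin (Afdn), which anchors nectins to actin, rose by 1.91 (edgeR adjusted p = 3.8e-06). Once corrected, Nectin3 and Afdn still passed as higher, at 1.11 and 1.40, and Nectin2 stood at -0.04. In lean mice 2 rose and 1 fell, where 30.9% of all genes passed. At midpoint, where 29.5% passed, 3 were higher and 1 lower in obese than in lean libraries, the lower gene being Ctnna1 at -0.86 (edgeR adjusted p = 0.031), and 0 passed after the correction.

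Desmosomal genes were mostly at or near 0 counts. Of 12 listed besides Jup and Dsp, 4 were tested, and the 8 others had 0 to 14 counts over all libraries. Dsg1a, Dsg3, Dsc1 and Dsc3, which encode desmosomal cadherins, had 0 counts. Plakophilin 2 (Pkp2) was the highest at 1.70 RPKM and did not pass in any comparison described. In obese mice plakophilin 3 (Pkp3) fell to 0.557 CPM at endpoint, against 1.49 CPM at midpoint (log2 fold change -1.40, edgeR adjusted p = 0.00086), and periplakin (Ppl) rose by 1.89 (adjusted p = 0.0063). After correction Pkp3 stood at -0.04 and Ppl at 2.56. In lean mice 0 of the 4 passed over time, with Pkp3 at 0.31, and after correction Pkp3 passed as higher at 0.84 (edgeR adjusted p = 0.040). At midpoint Pkp3 passed as higher in obese than in lean mice by 1.05 (edgeR adjusted p = 0.036), and after correction it did not, at 0.30 (adjusted p = 0.50).

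Tight junction genes were likewise unequal in level. The claudins Cldn3, Cldn4 and Cldn8 and cingulin (Cgn) had at most 2 counts in a library, whereas the scaffold ZO-1 (Tjp1) had 17.9 RPKM. Of 16 tight junction genes 9 were tested; 4 rose and 1 fell over time in obese mice, 2 rose and 1 fell in lean mice, and 0 were higher and 3 lower in obese than in lean midpoint libraries, where 73.9%, 30.9% and 29.5% of all genes passed. After correction 0 passed at midpoint. Tjp1 had 213 CPM in obese endpoint and 53.8 CPM in obese midpoint libraries, a log2 fold change of 1.99 (edgeR adjusted p = 1.6e-06), and 1.21 after correction. Ocln, which encodes occludin, rose by 1.30 in obese mice (edgeR adjusted p = 0.00025) and turned to -0.20 after correction. Of 11 polarity genes 8 were tested; 3 rose and 4 fell over time in obese mice, 2 rose and 0 fell in lean mice, and 4 were higher and 3 lower in obese than in lean midpoint libraries, beside the same shares of all genes. After correction 0 were higher and 1 lower at midpoint. Dlg1 rose in obese mice by 2.79 (edgeR adjusted p = 4.1e-07; 1.25 after correction), whereas its partner in the Scribble complex, Scrib, fell by 1.43 (adjusted p = 1.3e-05; -0.31 after correction).

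Other keratins lay near the floor. Of 13 keratin genes besides Krt8 and Krt18, 2 were tested, Krt16 and Krt80, at 0.151 and 0.378 RPKM. The other 11, Krt5, Krt14 and Krt19 among them, had 0 to 10 counts over all libraries. Over time in obese mice Krt16 fell by 2.47 (edgeR adjusted p = 0.00094) and Krt80 by 1.34 (adjusted p = 0.0043), with group means of at most 1.03 CPM, and after correction neither passed.

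Among regulators that maintain epithelial identity, the Kruppel-like factors Klf4 and Klf5 rose in both diets. Of 15 such genes 8 were tested, and Grhl1, Ovol2, Ehf and Esrp1 were not. Over time in obese mice 5 rose and 1 fell, in lean mice 2 rose and 0 fell, and at midpoint 0 passed between obese and lean mice, where 73.9%, 30.9% and 29.5% of all genes passed. Klf4 had 27.2 CPM in obese endpoint and 7.46 CPM in obese midpoint libraries (log2 fold change 1.86, edgeR adjusted p = 1.5e-06), and rose by 1.23 in lean mice (adjusted p = 0.0015). Klf5 rose by 1.96 in obese (edgeR adjusted p = 1.9e-05) and by 1.40 in lean mice (adjusted p = 0.0052). Both still passed after correction, Klf4 at 2.83 and Klf5 at 1.94 in obese mice, and Klf4 at 1.82 and Klf5 at 1.499 in lean mice. These 2 genes, listed here as epithelial, thus rose along with the Zeb genes.

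Of 16 epithelial surface genes 11 were tested; in obese mice 1 rose and 5 fell over time, in lean mice 1 rose and 1 fell, and at midpoint 1 was higher and 2 lower in obese than in lean libraries, where 73.9%, 30.9% and 29.5% of all genes passed. After correction 0 were higher and 1 lower at midpoint. The gene that rose was the laminin receptor subunit Itga6, with 689 CPM in obese endpoint and 147 CPM in obese midpoint libraries (log2 fold change 2.23, edgeR adjusted p = 1.2e-06; 1.85 after correction). Among those that fell were Lsr, an angulin of tricellular junctions, by 1.81 (edgeR adjusted p = 1.1e-05), and the protease matriptase, St14, by 0.97 (adjusted p = 0.0030). After correction St14 stayed lower at -1.52 and Lsr did not pass.

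Other transcription factors of the transition were present at levels like those of the Zeb genes or above them. Twist2 had 35.7 RPKM, Snai1 20.6, Prrx1 18.3 and Twist1 15.4 RPKM, whereas Snai2 had 18 counts over all libraries. Of 15 listed factors 9 were tested. Over time 6 rose and 2 fell in obese mice and 4 rose and 1 fell in lean mice, and at midpoint 1 was higher and 2 were lower in obese than in lean mice, where 73.9%, 30.9% and 29.5% of all genes passed. Prrx1 had 346 CPM in obese endpoint and 57.3 CPM in obese midpoint libraries (log2 fold change 2.59, edgeR adjusted p = 4.8e-07), and rose by 1.84 in lean mice (adjusted p = 0.00033). After correction Prrx1 stood at 0.94 in obese and 0.86 in lean mice and still passed. Tcf4, an E protein, rose by 2.38 in obese mice (edgeR adjusted p = 4.5e-07) and stood at 0.13 after correction. At midpoint Twist1 was lower in obese than in lean libraries, at 13.4 against 22.4 CPM (log2 fold change -0.74, edgeR adjusted p = 0.039). After correction 0 of the factors passed at midpoint, with Twist1 at -1.24 (edgeR adjusted p = 0.054).

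TGF-beta signalling, a known inducer of Zeb1 and Zeb2, was represented by 14 tested genes of 16. In obese mice 9 rose and 3 fell over time, where 73.9% of all genes passed, and in lean mice 4 rose and 1 fell, where 30.9% did. After correction 5 rose and 3 fell in obese mice, where 55.8% of all genes passed. In lean mice 5 rose and 2 fell after correction, where 25.4% did. The receptor Tgfbr1 had 83.1 CPM in obese endpoint and 9.77 CPM in obese midpoint libraries (log2 fold change 3.09, edgeR adjusted p = 2.7e-07; 1.08 after correction). The signal mediator Smad3 fell by 1.17 (edgeR adjusted p = 1.6e-05; -0.60 after correction). At midpoint, where 29.5% of all genes passed, 1 was higher and 2 were lower in obese than in lean mice; the ligand Tgfb1 had 106 against 50.2 CPM (log2 fold change 1.08, edgeR adjusted p = 0.030), and Smad4 was lower, at -0.74. Neither passed after correction (edgeR adjusted p = 0.062 and 0.059). Of the 14 genes 0 were then higher and 1 lower at midpoint, where 7.26% of all genes passed.

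Of 26 mesenchymal effector genes 25 were tested; 12 rose and 8 fell over time in obese mice, 5 rose and 4 fell in lean mice, and 3 were higher and 4 lower in obese than in lean midpoint libraries, where 73.9%, 30.9% and 29.5% of all genes passed. After correction 9 rose and 2 fell in obese mice, 4 rose and 2 fell in lean mice, and 0 were higher and 2 lower at midpoint. The shares of all genes that passed were then 55.8%, 25.4% and 7.26%. S100a4 at 977 RPKM and osteopontin (Spp1) at 904 RPKM were the highest after Vim. Spp1 had 2175 CPM in obese endpoint and 411 CPM in obese midpoint libraries (log2 fold change 2.41, edgeR adjusted p = 2.7e-06; 1.36 after correction). Smooth muscle actin (Acta2), also a marker of myoepithelial cells, fell by 1.77 (edgeR adjusted p = 3.1e-06; -1.49 after correction). At midpoint Spp1 and the integrin Itgb1 were lower in obese than in lean libraries, at log2 fold changes of -1.61 and -1.38 (edgeR adjusted p = 0.030 for both), and both still passed after correction. Between obese and lean mice at endpoint 0 of the 101 tested genes of these 10 lists passed in edgeR. At an unadjusted p under 0.05 there were 8, beside 800 of all 16352 genes. DESeq2, which fitted 139 genes of the lists, passed 0 at endpoint. In the interaction 0 of the 101 passed in edgeR, with 35 at an unadjusted p under 0.05, beside 5451 of all 16352. DESeq2 passed 11 of the 139 in the interaction, beside 1530 of the 14534 genes it gave an adjusted p. Nothing about the lists is read from these counts.

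The medians of the lists were set beside that of all genes, which was -0.0015 over time in obese mice, 0.04 over time in lean mice and -0.0010 at midpoint between diets. Over time in obese mice the median log2 fold change was 1.27 for epithelial regulators, 1.23 for EMT regulators, 0.76 for mesenchymal effectors, 0.73 for TGF-beta genes, 0.36 for tight junction, 0.17 for desmosome, -0.45 for epithelial surface and -0.97 for polarity genes. In lean mice it was 0.69 for epithelial regulators, 0.57 for EMT regulators, 0.34 for TGF-beta genes, -0.17 for mesenchymal effectors, -0.30 for epithelial surface and -0.38 for polarity genes. After the correction, over time in obese mice, where 37.9% of all genes were higher and 17.9% lower, 7 EMT regulators rose and 0 fell, 4 epithelial regulators rose and 0 fell, 5 adherens and 5 tight junction genes rose and 0 fell, 5 TGF-beta genes rose and 3 fell, 9 mesenchymal effectors rose and 2 fell, 3 polarity genes rose and 1 fell, and 2 epithelial surface genes rose and 3 fell. Corrected medians in obese mice were 1.71 for epithelial regulators, 0.67 for tight junction, 0.63 for desmosome and 0.61 for TGF-beta genes, 0.52 for EMT regulators, 0.35 for adherens junction genes and 0.31 for mesenchymal effectors, beside 0.27 for all genes. The medians of epithelial surface and polarity genes then turned to 0.11 and 0.03 in obese mice and to 0.39 and 0.14 in lean mice, and that of mesenchymal effectors in lean mice to 0.16, where the median of all genes was 0.27 in obese and 0.18 in lean mice.

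**Figure D5:**
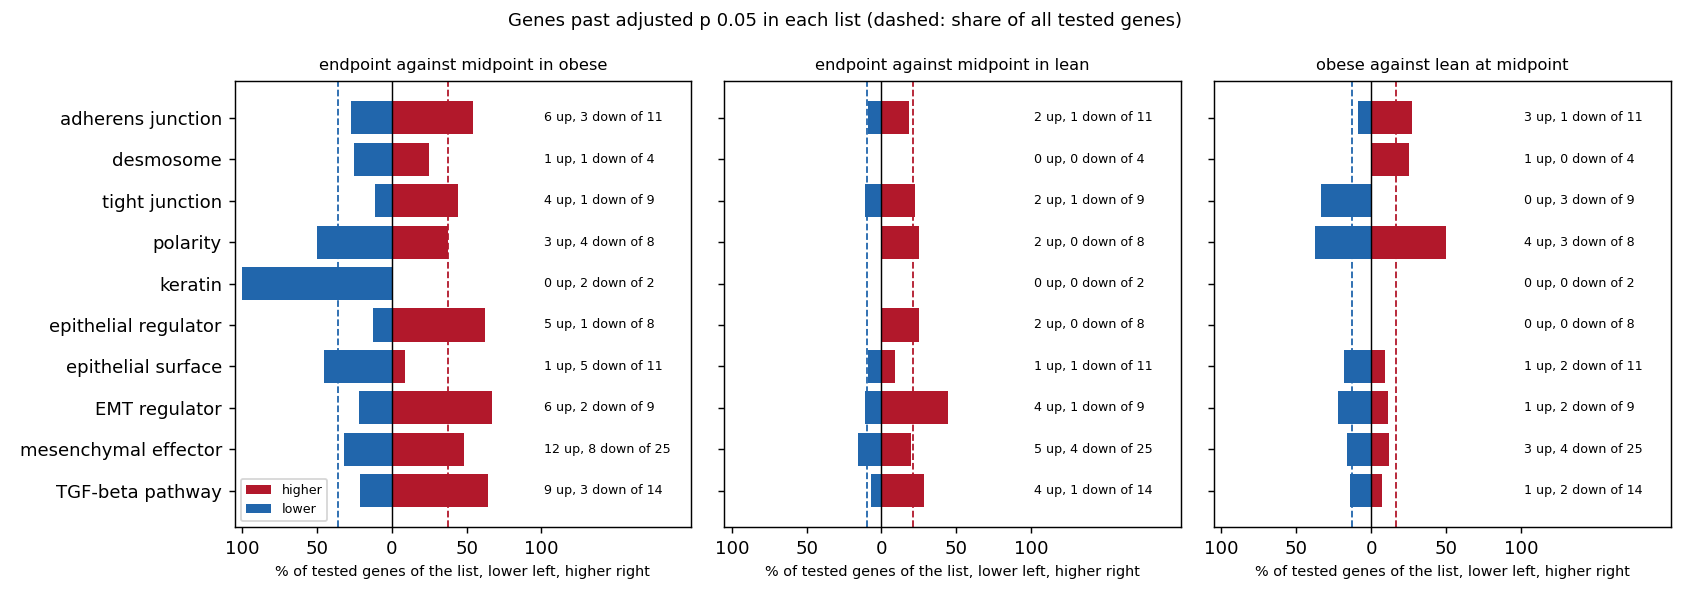
Share of the tested genes of each list that passed as higher (right) or lower (left) in 3 comparisons, with the counts beside the bars and the share of all 16352 tested genes as dashed lines. In obese mice over time, where 73.9% of all genes passed, higher genes outnumbered lower ones among TGF-beta genes (9 and 3), mesenchymal effectors (12 and 8), EMT regulators (6 and 2), adherens junction genes (6 and 3), epithelial regulators (5 and 1) and tight junction genes (4 and 1), and lower ones outnumbered higher ones among epithelial surface (1 and 5), polarity (3 and 4) and keratin genes (0 and 2).

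Transcripts of genes used as markers of other cell types were present in the sorted cells, and which cells held them was not tested. All 12 fibroblast, 9 pan-leukocyte and 16 macrophage markers were tested, and none was at 0 throughout. Col3a1, at a mean of 1649 CPM, and Col5a1, at 515 CPM, made up most of the fibroblast sum, while Col1a1 and Col1a2 were at 5.14 and 3.86 CPM. The summed CPM of the fibroblast markers ran from 2234 to 3583 in obese endpoint, 2193 to 3393 in lean endpoint, 2140.4 to 4123 in obese midpoint and 2957 to 3639 in lean midpoint libraries, and that of the macrophage markers from 161 to 881, 296 to 542, 221 to 430 and 282 to 670.2 in the same order of groups. Over time in obese mice 5 fibroblast markers rose and 5 fell, Dcn among them at 30.7 CPM in endpoint and 0.772 CPM in midpoint libraries (log2 fold change 5.29, edgeR adjusted p = 4.4e-07), and in lean mice 4 rose and 4 fell, where 73.9% and 30.9% of all genes passed. Dcn stayed higher in obese mice after the correction, at 3.52 (edgeR adjusted p = 8.8e-06). There 4 fibroblast markers rose and 2 fell, where 55.8% of all genes passed. The pan-leukocyte markers summed to 708 to 1008 CPM in obese endpoint, 629.9 to 1180 CPM in lean endpoint, 1230.2 to 1890.3 CPM in obese midpoint and 1104 to 1275 CPM in lean midpoint libraries. Arhgdib alone, at a mean of 912 CPM, made up most of that sum, while Ptprc, which defines leukocytes, averaged 6.28 CPM and Cd53 10.8 CPM, so the sum is no measure of leukocytes. Of the pan-leukocyte markers 3 rose and 4 fell over time in obese and 0 rose and 5 fell in lean mice, and of the macrophage markers 2 rose and 0 fell in obese and 1 rose and 1 fell in lean mice. After the correction, where 55.8% of all genes passed, 9 macrophage markers rose and 1 fell and 2 pan-leukocyte markers rose and 1 fell over time in obese mice. At midpoint, where 29.5% of all genes passed, 1 pan-leukocyte marker was higher and 3 were lower, 4 macrophage markers were lower and 1 fibroblast marker was lower in obese than in lean mice. With the correction 0 macrophage, 2 pan-leukocyte and 1 fibroblast marker were lower there and 0 were higher, where 7.26% of all genes passed. Vim, Zeb1 and Zeb2 are expressed by fibroblasts and by many leukocytes, and the part of such cells in the values above was not tested. The normal luminal markers, 3 of 10 tested, summed to 138 to 193 CPM in obese endpoint, 59.9 to 241 CPM in lean endpoint, 32.3 to 82.3 CPM in obese midpoint and 79.5 to 119.6 CPM in lean midpoint libraries, with 2 that rose over time in obese and 1 in lean mice. Areg, a growth factor, made up nearly all of that sum, at a mean of 108 CPM, and Esr1 averaged 1.78 CPM. Of the myoepithelial markers 3 of 8 were tested, and Pgr, Csn2 and Krt5 never exceeded 2 counts. Endothelial markers, 8 of 10 tested, fell in 4 cases in obese and 3 in lean mice over time, T and NK cell markers, 8 of 10 tested, in 5 and 3 cases, beside the 36.1% and 9.5% of all genes that fell, and of 8 adipocyte markers 2 were tested.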

How the data were processed

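The authors deposited 1 table of counts, whole numbers per gene that were not normalized, for 19 libraries. Its columns also give, per the file headers, the Ensembl identifier, position and exon length of a gene. TopHat, DESeq and mm10 appear in the submitters' processing notes, with no roles or versions. How genes were counted and filtered, with which annotation and strand, is not given in the sources used here. Of counts from 1 to 20, 63.7% were even, so read pairs may have been counted as 2.

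Symbols came from GENCODE by identifier (37607 genes matched). Lean endpoint replicate 4 (11889188 counts) was left out. The sample titles number the replicates within a group, and each replicate was taken as a separate tumor. Counts were fitted in R 4.3.3 with edgeR 4.0.16: filterByExpr (16352 genes), TMM scaling, 1 mean for each of the 4 groups and the quasi-likelihood test for 5 contrasts, with Benjamini-Hochberg adjustment over all genes tested at 0.05; the fit was tested on simulated data. Intervals are 95%. CPM and RPKM were computed here from the deposited counts. The GC and length correction subtracted, in each library, natural splines (5 degrees of freedom each) of log2 CPM on GC content and log10 length, for 16122 genes. Other settings were RLE scaling, no filter, at least 5 CPM in at least 4 libraries, DESeq2 1.42.0, only the groups being compared, a block for the replicate number, that correction, and leaving out each library.

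The members, the 10 pathway lists and the 8 marker lists were chosen with earlier results of these data known. Named genes were the members, up to 4 genes with the smallest p of each list and contrast, and the 3 genes most like each member, of which some are not reported here. Genes named for their high level or for few counts were chosen after their values were seen. Floors cover counting error only.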

Additional observations from a re-analysis of the deposited data

Results flagged for a closer look

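A library far from the others of its group was found in 5 of 37 combinations of member and group. All 5 concern genes of few counts, where 1 library with 2 counts among libraries at 0 is always flagged. The rate of about 1 in 20 by chance does not hold for such counts, so the number is not read against it. Dsp had 0.0365 CPM (2 counts) in obese midpoint replicate 4 and 0 in the other obese midpoint libraries. Epcam had 0.161 CPM (10 counts) in obese midpoint replicate 1, against at most 0.0463 CPM in the other libraries of that group. Krt18 had 0.0617 CPM (4 counts) in lean midpoint replicate 2 and 0 in the others, and 0 CPM in lean endpoint replicate 1, where the others of that group had 0.0375 to 0.0404 CPM. Cdh2 had 0.0450 CPM (2 counts) in obese endpoint replicate 4 and 0 in the others.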

How the results depend on the processing

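At midpoint, where 2 members passed between obese and lean mice, 0 passed in a fit of the compared groups alone and 0 after the GC and length correction, and 0 to 4 when a library was left out. All genes that passed there numbered 4825 (2726 higher, 2099 lower; with no filter 1084 and 2179), and 0 with the compared groups alone or when replicate 2 or 3 of either group was missing (5325 to 6314 at an unadjusted p under 0.05); they numbered 7946 without replicate 1 and 2625 without replicate 5 of the obese group, 2597 without replicate 1 of the lean group and 1171 with the correction. In the interaction 3 members passed with DESeq2, 0 to 4 with a library left out (4 without obese midpoint replicate 1), and 0 elsewhere; genes numbered 0, against 1530 with DESeq2 and 5656 without that library. With a library left out, 2 to 3 members passed over time in lean mice, 4 in obese mice, and 0 between diets at endpoint; genes over time in lean mice numbered 5053, and 3251 without lean midpoint replicate 1. At endpoint DESeq2 passed 8 genes, against 1. With no filter, or with DESeq2, Dsp passed over time in obese mice (3.66 and 3.97, adjusted p = 0.0067 and 0.0041), from 18, 6, 4, 0 and 4 counts at endpoint and 0, 0, 0, 2 and 0 at midpoint.

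After the correction the sign changed for Krt8 over time in lean (0.48) and obese mice (0.25), for Vim at midpoint (0.11), in the interaction (-0.21) and over time in obese mice (-0.39), for Nectin1 (-0.0276) and Arvcf (-0.0448) at midpoint, for Nectin2 in lean mice (0.0753), and for Nectin1 (0.19), Ocln (-0.20) and Tjp3 (0.0697) in obese mice over time. Vim over time in obese mice lay between -0.0961 and 0.0875 with a library left out, in the interaction it reached -0.0015, and Zeb1 at endpoint between diets lay between -0.0471 and 0.23. The causes were not tested.

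Libraries of the same replicate number were not regularly alike: 24 such pairs had r from -0.403 to 0.551, and 10 of 48 comparisons put a library closest to its own number. Whether the numbers pair tumors cannot be told from this, since all genes of a library also share its GC slope. With the replicate number as a block 2, 0, 0, 2 and 4 members passed, the counts without it for obese against lean at midpoint, at endpoint, the interaction, and time in lean and in obese mice.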

Other observations

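In the library left out, lean endpoint replicate 4, Vim and Zeb2 were scaled as CPM of the counts on chromosomes 1 to 4. On that scale Vim had 27512 and Zeb2 1362 CPM, inside the ranges of the other lean endpoint libraries, 21482 to 35184 and 526 to 1638. Zeb2 lay above all lean midpoint libraries, which had 361 to 451 CPM on the same scale.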
